A study of Mus musculus with 6 samples.

Results

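Nucleoporins are the proteins of the nuclear pore complex, and their mRNAs were followed here in a mouse fibroblast line in which the gene of one of them, Ranbp2, was targeted. The 31 nucleoporin genes were taken from a list of names, matched to the 55471 genes of the count table, and placed in 6 subcomplexes by their known position in the pore: cytoplasmic filament, outer ring, inner ring, channel, basket and membrane. Of the 31, 29 had enough reads to be tested. Nup42 and Nup58 stand in the annotation under their older names Nupl2 and Nupl1.

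The cells were 10T1/2, an embryonic fibroblast line, grown without treatment. One group of 3 libraries was wild type (WT). The other 3 libraries carry the genotype label Ranbp2 KO, a knockout which the study made by CRISPR/Cas9 editing, and the labels leave unsaid whether 1 clone or several were used. PolyA RNA was sequenced, and the values are estimated read counts per gene.

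The pore spans the nuclear envelope and is built from many copies of each nucleoporin. A ring of Y-shaped outer complexes lies on both faces, an inner ring holds the middle, and transmembrane nucleoporins anchor it in the envelope. Nucleoporins with phenylalanine-glycine (FG) repeats fill the channel and form the barrier through which importins, exportins and mRNA particles pass. On the cytoplasmic face, filaments built by Ranbp2 and the Nup214 and Nup88 complex take part in releasing cargo and in remodelling exported mRNA. On the nuclear face, Tpr, Nup153 and Nup50 form the basket. Ranbp2 itself, also called Nup358, binds the GTPase Ran and acts as a SUMO E3 ligase.

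Promoter sequence from RefSeq (build GRCm38.p6) was found for 27 of the 31 genes, and 4 stretches are shown because these genes include the targeted one and the members with the largest differences in either direction. Each stretch is 150 bases, 5′ to 3′ on the gene's own strand, and ends just before the more upstream of the RefSeq and GENCODE M21 start sites. The positions are chr10:58446702-58446851 on the plus strand for Ranbp2, chr1:150392688-150392837 on the plus strand for Tpr, chr13:46727941-46728090 on the minus strand for Nup153 and chr15:8109123-8109272 on the plus strand for Nup155. Capitals mark matches, on either strand, to the motifs searched. These are TGATGACGC in Ranbp2, Tpr and Nup153, CCAAT in Tpr and Nup155, and GGGCGG in Nup153 and, on the other strand and overlapping, Nup155.
Ranbp2: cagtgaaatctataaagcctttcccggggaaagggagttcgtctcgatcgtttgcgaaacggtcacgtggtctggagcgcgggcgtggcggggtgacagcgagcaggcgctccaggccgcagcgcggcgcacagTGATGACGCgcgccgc
Tpr: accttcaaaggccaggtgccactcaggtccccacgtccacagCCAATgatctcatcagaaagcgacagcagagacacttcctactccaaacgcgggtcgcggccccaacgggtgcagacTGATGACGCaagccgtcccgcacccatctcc
Nup153: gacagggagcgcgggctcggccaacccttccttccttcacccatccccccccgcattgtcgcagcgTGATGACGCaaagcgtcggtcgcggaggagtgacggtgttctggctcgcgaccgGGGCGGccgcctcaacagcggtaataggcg
Nup155: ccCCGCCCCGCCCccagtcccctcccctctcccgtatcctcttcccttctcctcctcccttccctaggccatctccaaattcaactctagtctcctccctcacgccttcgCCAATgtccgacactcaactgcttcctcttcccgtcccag

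The stretch TGATGACGC was noticed only after these sequences had been seen. In the 250 bases before the RefSeq start, searched on both strands, it occurs in 3 of the 27 nucleoporins (11.1%), namely Ranbp2, Tpr and Nup153, and in 37 of 10516 promoters of tested genes (0.352%). All 3 are among the sequences in which it was noticed, and no other nucleoporin promoter searched held it. The shares therefore do not test enrichment. Ranbp2 and Tpr were higher in the KO-labelled libraries and Nup153 was lower, so the stretch did not go with 1 direction. Of the other motifs searched, CCGGAAG, the core bound by ETS factors, was in 6 of 27 nucleoporins (22.2%) and in 13.8% of promoters of tested genes. GGGCGG, the GC box bound by Sp1, was in 16 of 27 (59.3%) and 58.1%, and CCAAT, bound by NF-Y, in 10 of 27 (37.0%) and 36.9%. A consensus motif of NRF1 was in 3 (11.1%, against 8.19%), the YY1 motif AAGATGGCG in 2 (7.41%, against 1.21%) and the cyclic AMP response element TGACGTCA in 2 (7.41%, against 2.74%). CCGGAAG occurred in 3 of 7 promoters of the nucleoporins called higher, in 1 of 5 of those called lower and in 2 of 13 of those not called. In the same order, GGGCGG was in 4 of 7, 2 of 5 and 8 of 13, and CCAAT in 2 of 7, 1 of 5 and 7 of 13. The NRF1 motif was in 1 of 7, 0 of 5 and 2 of 13. AAGATGGCG and TGACGTCA were each in 0 of 7, 0 of 5 and 2 of 13. These are matches of letters and were not tested for binding.

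The libraries held 32072817 to 46321967 expected counts, and within a group log2 CPM (CPM being a gene's counts scaled to the size of its library) correlated across genes at r = 0.9853 to 0.9903, and across groups at 0.9503 to 0.9572, with genes that are no independent replicates. Fibroblast markers summed to 28245 to 35187 CPM in the KO-labelled and to 23176 to 27115 CPM in the WT libraries. Of these 12 markers, 5 were called higher and 3 lower, where 17.6% of all genes tested were called higher and 21.3% lower. Their log2 differences, KO-labelled minus WT, ranged from -1.03 for Fbln2 to 2.23 for Lum, which stood at 0.799 ± 0.0289 against 0.165 ± 0.141 CPM. Markers of other cell types were low: epithelial markers summed to 6.13 to 9.03 against 2.16 to 2.6 CPM, endothelial to at most 1.05 CPM, and haematopoietic to at most 2.22 CPM with Adgre1 at 0. Skeletal muscle markers summed to 2.35 to 3.08 against 0.641 to 0.891 CPM with Myod1, Myog and Pax7 at 0 in all 6 libraries, and neuronal markers to 2.09 to 2.33 against 14.7 to 16.7 CPM. The neuronal sum was nearly all Tubb3 (2.03 ± 0.207 against 15.4 ± 1.10 CPM), with Rbfox3, Snap25 and Syt1 at or near 0, the muscle sum was Des alone, and most of the epithelial sum was Cdh1 (7.46 ± 1.47 against 2.22 ± 0.327 CPM). Their part in the nucleoporin differences was not tested.

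The mRNA of the targeted gene was not reduced: its level was higher where the label says Ranbp2 KO. Of Ranbp2 (ENSMUSG00000003226, with 3 annotated transcripts), KO-labelled libraries 1, 2 and 3 held 294, 289 and 293 CPM, and WT libraries 1, 2 and 3 held 220, 250 and 249 CPM. Every KO-labelled value lay above every WT value, and WT 1 was the lowest. The log2 difference, KO-labelled minus WT, was 0.28 (SE 0.07, 95% interval 0.14 to 0.43, adjusted p = 0.012), and the exact two-sided permutation test over the 6 values gave p = 0.1, below which 3 against 3 cannot go. With each library's trend of CPM with GC content removed, an alternative added after the data were seen, the difference was 0.14 (adjusted p = 0.0523) and no longer passed. Counts are summed over the gene and carry no exon positions, so they do not show whether the edited stretch is still transcribed. Of 12 annotated Ranbp2 pseudogenes on chromosome 7, 1 had any reads, with 2 counts over the WT libraries and 0 over the KO-labelled ones. The counts cannot show the edit itself, and the mRNA amount of the gene does not decide whether the label holds. The libraries are therefore called KO-labelled, and directions below are those of these libraries relative to WT.

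Among the 29 nucleoporins tested, 8 were higher and 6 were lower at an adjusted p below 0.05, and 15 were not called. With no count filter 5 were higher and 9 lower, with DESeq2 7 and 8, and with the chromosome medians taken out 5 and 2. The numbers higher and lower over all genes also moved, from 2721 and 3290. They were 2736 and 3916 with no count filter, 2445 and 3363 with DESeq2, and 2254 and 2782 with the chromosome medians taken out. The 14 calls are 48.3% of the members, where 38.9% of all 15454 genes tested were called (17.6% higher and 21.3% lower). Among the 9391 genes with at least 10 CPM in the higher group, a range that holds all tested nucleoporins, the share was 44.5% (18.8% higher and 25.8% lower), near that of the nucleoporins. The groups did not overlap in 17 of 29 (58.6%), against 51.4% of all genes tested and 56.0% of those with at least 10 CPM. The median log2 difference was 0.03, beside 0.01 over all genes. Nucleoporin differences were small: the median absolute log2 difference was 0.20 against 0.21 for genes with at least 10 CPM, the largest was 0.40, and 23.8% of genes with at least 10 CPM exceeded it. In bulk RNA, a change in the number of cells that make an mRNA and a change in its amount per cell cannot be told apart.

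The counts moved when single libraries were left out, as did those over all genes tested. The number higher was 4 without WT 2 and 5 without KO-labelled 2, KO-labelled 3 or WT 1. Across all genes, 2721 were higher with all 6 libraries. This number was 1839 without WT 2, 2096 without KO-labelled 2, 2087 without KO-labelled 3 and 2319 without WT 1. The number of nucleoporins lower was 3 without KO-labelled 1, KO-labelled 3 or WT 2. Across all genes, the number lower went from 3290 to 2987, 2760 and 2514 in these fits. Of the 14 called members, 7 were called in each of the 6 fits that leave out 1 library, namely Ranbp2, Nup42, Rae1, Ahctf1, Nup155, Nup153 and Tpr. No called member changed direction in any of these fits.

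**Figure D1:**
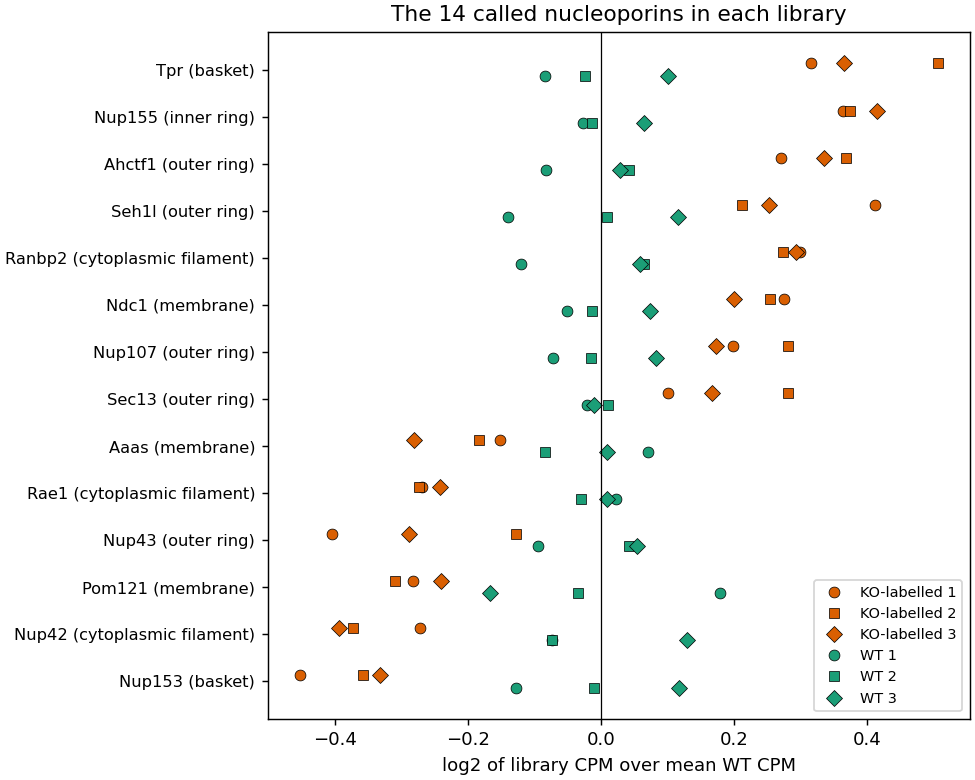
Each point is 1 library, plotted as log2 of its CPM over the mean WT CPM of that gene, for the 14 nucleoporins called at an adjusted p below 0.05. Orange symbols are KO-labelled libraries 1 to 3 and green symbols WT libraries 1 to 3. In all 14 genes the orange and green ranges do not overlap, with the 8 higher genes above and the 6 lower genes below.

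Around Ranbp2 on the cytoplasmic face, the other filament genes did not share its direction. Of 6 tested, Ranbp2 was higher, Nup42 and Rae1 were lower, and Nup214, Nup88 and Gle1 were not called. This is 50.0% called, against 38.9% of all genes tested and 44.5% of those with at least 10 CPM. The median log2 difference was -0.16, or -0.04 with each chromosome's median taken out. Nup42 (chromosome 5, 24164963 to 24184013, plus strand), an FG protein that helps Gle1 activate the helicase that remodels exported mRNA, stood at 14.9, 13.9 and 13.7 CPM, against 17.1, 17.1 and 19.7 CPM in WT. Each KO-labelled library was below each WT library, and the log2 difference was -0.34 (SE 0.09, adjusted p = 0.0123). Rae1 (chromosome 2, 173000117 to 173015739, plus strand), an mRNA export factor that binds Nup98, stood at 40.9, 40.8 and 41.7 CPM against 50.1, 48.3 and 49.6 CPM. Its groups were tight and apart, and the log2 difference was -0.26 (SE 0.06, adjusted p = 0.00973). The 3 genes not called had log2 differences of -0.20 (SE 0.11) for Nup214, -0.12 (SE 0.08) for Gle1, the helicase activator, and -0.08 (SE 0.08) for Nup88, the partner of Nup214, and their groups overlapped. Summed over the 6 genes, the level was 526 ± 4.32 CPM (SD, n = 3) in the KO-labelled and 502 ± 12.0 CPM in the WT libraries. Ranbp2 was the largest part of both sums, at 292 ± 2.67 and 239 ± 17.2 CPM.

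Of the outer ring, the group with the most genes, 5 of 9 were called (55.6%, against 38.9% of all genes tested and 44.5% of those with at least 10 CPM). Of these 9, Nup107, Seh1l, Sec13 and Ahctf1 were higher, Nup43 was lower, and Nup160, Nup133, Nup85 and Nup37 were not called. The median log2 difference was 0.14, and the summed level was 925 ± 18.2 CPM in the KO-labelled and 808 ± 23.4 CPM in the WT libraries, with no overlap. Nor did the sums overlap for the cytoplasmic filament (522 to 531 against 489 to 513 CPM) and the basket (585 to 646 against 514 to 583 CPM). Ahctf1 (chromosome 1, 179744894 to 179803680, minus strand), also called ELYS, brings the Y complex to chromatin at the end of mitosis. It stood at 240, 257 and 251 CPM against 188, 205 and 203 CPM, so that the lowest KO-labelled value exceeded the highest WT value. The log2 difference was 0.33 (SE 0.07, adjusted p = 0.00407), beside a median of 0.29 for the other genes of chromosome 1, and it was not called with that median taken out (adjusted p = 0.573).

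Seh1l (chromosome 18), a Y-complex subunit that also belongs to the GATOR complex of amino acid sensing, stood at 124, 108 and 111 CPM against 84.6, 93.8 and 101 CPM. KO-labelled 1 was the highest and WT 1 the lowest, and the log2 difference was 0.29 (SE 0.09, adjusted p = 0.0228). Nup107 (chromosome 10, 117750621 to 117792705, minus strand), in the stem of the Y, stood at 117, 124 and 115 CPM against 97.0, 101 and 108 CPM, a log2 difference of 0.22 (SE 0.07, adjusted p = 0.0278). Sec13 (chromosome 6, 113728062 to 113740743, minus strand), shared with the coat of vesicles that leave the endoplasmic reticulum, stood at 149, 169 and 156 CPM against 137, 140 and 138 CPM. Its WT values were close together and its KO-labelled values spread, and the log2 difference of 0.19 (SE 0.07, adjusted p = 0.0497) lay just inside the threshold. Nup43 (chromosome 10, 7667503 to 7678881, plus strand), a peripheral subunit of the Y, went the other way, at 17.9, 21.7 and 19.4 CPM against 22.2, 24.4 and 24.6 CPM. The highest KO-labelled value lay just under the lowest WT value, and the log2 difference was -0.27 (SE 0.09, adjusted p = 0.0363).

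These smaller outer ring calls were lost when some single libraries were left out. Nup107 was not called without KO-labelled 2, KO-labelled 3, WT 1 or WT 2 (adjusted p 0.066 to 0.12), and Seh1l not without KO-labelled 1, KO-labelled 3, WT 1 or WT 2 (0.0522 to 0.0791). Nup43 was not called without KO-labelled 1, KO-labelled 3, WT 2 or WT 3 (0.0829 to 0.123), and Sec13 was called only without KO-labelled 1 (0.0939 to 0.198 in the other 5 fits). The 4 subunits that were not called had log2 differences of 0.14 (SE 0.08) for Nup133, 0.12 (SE 0.07) for Nup160, 0.03 (SE 0.06) for Nup85 and -0.03 (SE 0.08) for Nup37. The KO-labelled values of Nup160, at 77.3 to 84.8 CPM, nevertheless all lay above its WT values of 69.8 to 76.3 CPM.

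In the inner ring, 1 of 5 genes was called (20.0%, against 38.9% of all genes tested and 44.5% of those with at least 10 CPM). The median log2 difference was 0.17, or 0.01 with each chromosome's median taken out. Nup155 (chromosome 15, 8109273 to 8161247, plus strand), a large scaffold protein that binds membrane, stood at 139, 140 and 144 CPM, against 106, 107 and 113 CPM in WT. The groups were far apart for their spread, with a log2 difference of 0.38 (SE 0.06, 95% interval 0.26 to 0.50, adjusted p = 0.00103), the smallest adjusted p of any nucleoporin. Nup93, which links the inner ring to the channel and has the highest level per length of this ring, stood at 107, 113 and 101 CPM against 98.2, 93.0 and 93.6 CPM. Its groups did not overlap, but the log2 difference of 0.17 (SE 0.07, adjusted p = 0.0672) was not called. The large scaffolds Nup205 and Nup188 had log2 differences of opposite sign, 0.17 (SE 0.09, adjusted p = 0.17) and -0.29 (SE 0.12, adjusted p = 0.0838). KO-labelled 1 stood apart in both, at 158 CPM of Nup205 where KO-labelled 2 and 3 were at 195 and 193 CPM, and at 74.0 CPM of Nup188 where they were at 96.4 and 102 CPM. Without KO-labelled 1, Nup205 was called higher (log2 difference 0.26, adjusted p = 0.0181). Nup188 was the 1 inner ring gene lower at an unadjusted p below 0.05, and it was called under 3 of 13 alternatives. These were DESeq2 (adjusted p = 0.0431), edgeR without WT 3 (log2 difference -0.37, adjusted p = 0.0421) and edgeR with no count filter (-0.33, adjusted p = 0.00117). Counts of Nup188 were not whole in 6 libraries. Its exons share 284 bases (4.55%) with Gm28038 on the same strand and 492 bases (7.88%) with Gm14471 on the opposite strand.

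Nup35, an inner ring protein that binds membrane, was not called (log2 difference -0.17, SE 0.11, adjusted p = 0.242). Its reads could be split with Gm4353 on chromosome 7, a gene 99.331% identical to it over 747 bases, and its counts were not whole in 6 of 6 libraries. The copy stood at 17.2, 19.1 and 15.4 CPM against 16.7, 16.6 and 25.1 CPM. Nup35 and the copy together gave 46.5 ± 4.43 CPM in the KO-labelled and 52.5 ± 4.02 CPM in the WT libraries, with overlapping values.

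No channel nucleoporin was called, of 3 tested, where 38.9% of all genes tested and 44.5% of those with at least 10 CPM were called. Nup62, the FG protein at the centre of the channel and the highest of them per length, stood at 52.6, 60.7 and 56.8 CPM against 72.9, 64.7 and 62.0 CPM. The groups did not overlap, but the log2 difference of -0.23 (SE 0.09, adjusted p = 0.0593) was not called. Its partner Nup54 had a log2 difference of 0.11 (SE 0.09) and Nup98, the FG protein that also binds Rae1, of -0.06 (SE 0.08). At an unadjusted p below 0.05 edgeR gave 1 channel gene, Nup62, as lower. Nup62 was called under 3 of 13 alternatives. These were DESeq2 (adjusted p = 0.0394), edgeR without WT 3 (log2 difference -0.28, adjusted p = 0.0319) and edgeR with no count filter (-0.26, adjusted p = 0.0161). Counts of Nup62 were not whole in 6 libraries. Its exons share 97 bases (3.4%) with Il4i1 on the same strand and 82 bases (2.87%) with Atf5 on the opposite strand.

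Nup58, the third member of the Nup62 complex, could not be read from the model that carries its name. That model (Nupl1, ENSMUSG00000063895, chromosome 14, 60184612 to 60251431) held 8.05 expected counts over the KO-labelled and 1.63 over the WT libraries and was not tested. The RefSeq gene Nupl1 runs from 60205284 to 60251479, nearly the same span as the unnamed model Gm49336 (60205282 to 60251507), which shares 1756 exon bases (48.8%) with the named model. Gm49336, singled out after these values were seen, stood at 131, 117 and 122 CPM, against 118, 139 and 144 CPM in WT. These overlap, and the log2 difference was -0.12 (SE 0.09, adjusted p = 0.323). With the GC trend removed, Gm49336, whose longest transcript has 35.7% GC, was called lower (-0.37, adjusted p = 0.000281), and it was called under no other of the 13 alternatives.

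The nuclear basket held both the largest positive and the largest negative difference among the tested nucleoporins. Tpr (chromosome 1, 150392838 to 150449935, plus strand), the coiled-coil protein that builds the basket filaments, stood at 376, 429 and 389 CPM, against 285, 297 and 324 CPM in WT. All KO-labelled values were above all WT values, with KO-labelled 2 the highest, and the log2 difference was 0.40 (SE 0.08, 95% interval 0.24 to 0.55, adjusted p = 0.00382). Nup153 (chromosome 13, 46679905 to 46727940, minus strand), the FG protein that ties the basket to the nuclear ring, stood at 103, 110 and 112 CPM against 129, 140 and 153 CPM. Here every KO-labelled value was below every WT value, and the log2 difference was -0.38 (SE 0.08, 95% interval -0.53 to -0.23, adjusted p = 0.0039). Tpr lies on chromosome 1, whose other genes had a median log2 difference of 0.29, and Nup153 on chromosome 13, where it was -0.28, and neither was called when these medians were taken out (adjusted p = 0.274 and 0.458). Nup50, which binds importin alpha and Nup153, stood at 105 ± 3.78 against 102 ± 3.15 CPM, with a log2 difference of 0.04 (SE 0.06, 95% interval -0.08 to 0.17).

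The membrane group also moved in both directions, with all 3 of its tested genes called. Of all genes tested 38.9% were called, and of those with at least 10 CPM 44.5%. Ndc1 (chromosome 4, 107367784 to 107416346, plus strand), a transmembrane protein needed for pore assembly, stood at 138, 136 and 131 CPM against 110, 113 and 120 CPM, a log2 difference of 0.24 (SE 0.06, adjusted p = 0.016). Pom121 (chromosome 5, 135376141 to 135394546, minus strand), a transmembrane FG protein, stood at 56.7, 55.7 and 58.4 CPM against 78.1, 67.4 and 61.5 CPM, a log2 difference of -0.28 (SE 0.09, adjusted p = 0.0353). Its WT values spread widely, with WT 3 near the KO-labelled values. Aaas (chromosome 15, 102338252 to 102350771, minus strand), the protein ALADIN that Ndc1 holds at the pore, stood at 71.8, 70.3 and 65.7 CPM against 83.8, 75.3 and 80.3 CPM, a log2 difference of -0.20 (SE 0.07, adjusted p = 0.0448).

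None of these membrane calls held in all fits with 1 library left out. Ndc1 was not called without KO-labelled 2 or WT 2 (adjusted p 0.0607 and 0.0893). Pom121 was called only without WT 3 (0.0751 to 0.108 in the other 5 fits), and Aaas in none of the 6 fits (0.0516 to 0.174). Pom121 also shares 665 exon bases (11.9%) with Nsun5 on the opposite strand, and its counts were not whole in any library. The same holds for the counts of the called genes Tpr and Seh1l of other groups. Counts were not whole in 5 libraries for Ahctf1, 2 for Nup155 and 1 for Ranbp2, and whole throughout for the remaining called members. Nup210, the large transmembrane protein of the pore known for its tissue-restricted expression, had 1, 5 and 0 counts in the KO-labelled and 0, 4 and 2 counts in the WT libraries, too few to test. Its relative Nup210l stood at 1.80 ± 0.227 against 1.53 ± 0.0731 CPM and was not called.

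**Figure D2:**
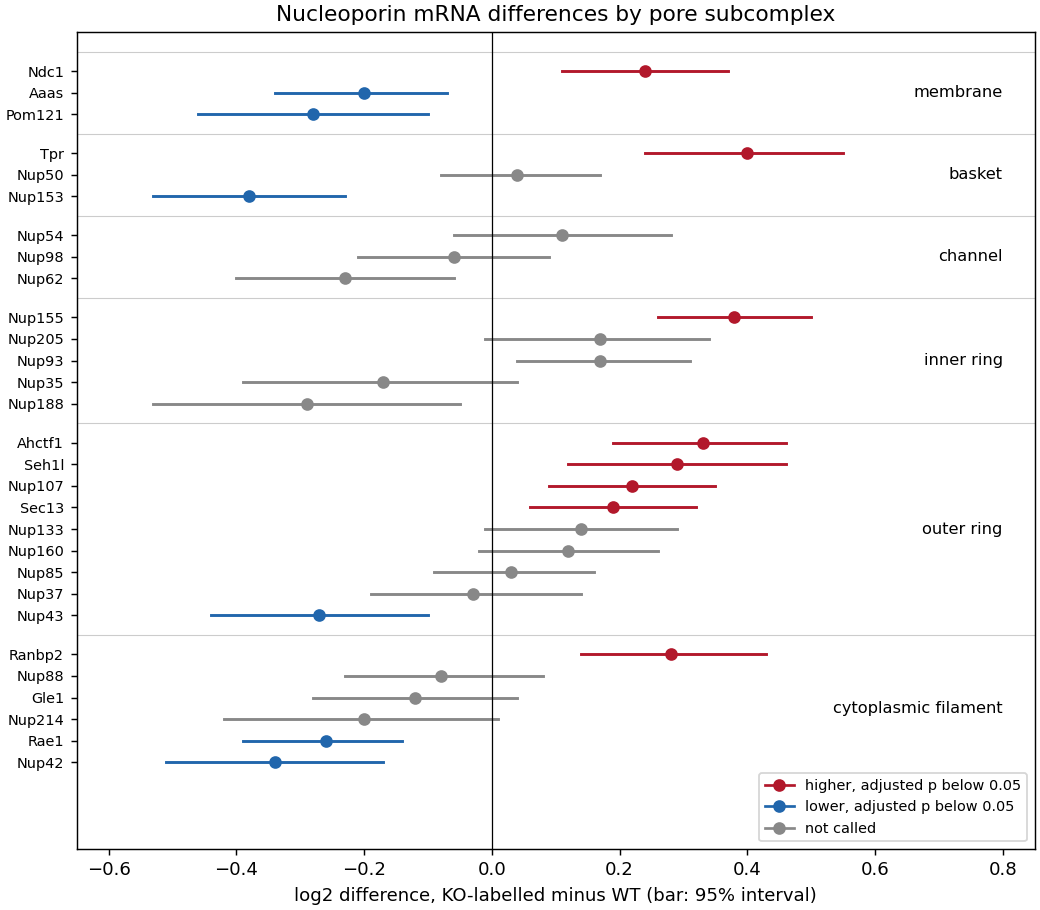
Points are log2 differences (KO-labelled minus WT) of the 29 tested nucleoporins, grouped by pore subcomplex, and bars reach 1.96 SE to each side. Red genes were called higher, blue genes lower, and grey genes were not called. The outer ring has 4 red genes and 1 blue, the basket holds Tpr at 0.40 and Nup153 at -0.38, and the channel has no called gene.

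Grouped by FG repeats, a split made after the values were seen, 1 of 9 tested FG nucleoporins was higher and 3 were lower, with a median log2 difference of -0.20. Over all genes tested, 17.6% were higher and 21.3% lower. The only FG member called higher was Ranbp2. Of the 20 tested nucleoporins without FG repeats, 7 were higher and 3 lower, with a median of 0.13. The shares called were 44.4% of the FG members and 50.0% of the others, beside 44.5% of genes with at least 10 CPM. The summed level of FG nucleoporins was 862 ± 21.1 CPM in the KO-labelled and 874 ± 14.5 CPM in the WT libraries, and that of the others 2244 ± 77.7 against 1998 ± 26.7 CPM. Tpr makes up a large share of the latter. The difference between these classes was not tested.

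Several of these genes lay on chromosomes whose other genes had moved the same way. The other 966 tested genes of chromosome 1, which holds Tpr and Ahctf1, had a median log2 difference of 0.29, and the other 645 of chromosome 13, which holds Nup153, one of -0.28. Within 5 Mb the medians were 0.20 around Tpr (39 genes), 0.24 around Ahctf1 (64 genes) and -0.37 around Nup153 (52 genes). Around Nup43 it was -0.36 (34 genes), around Ndc1 0.25 (56 genes), around Seh1l 0.18 (46 genes), and around Sec13 0.17 (76 genes). Nup155, with a median of 0.07 around it (51 genes), Ranbp2 (-0.03, 71 genes), Nup42 (0.01, 61 genes), Nup107 (0.05, 53 genes), Pom121 (-0.01, 125 genes), Aaas (0.03, 126 genes) and Rae1 (0.00, 74 genes) lay among genes with medians near 0, although the median of chromosome 2 as a whole, with Rae1, was -0.11. In all, 9 of the 14 called members had the sign of their chromosome's median, among them Nup155 with a chromosome 15 median of only 0.01. The same count was not made over all called genes, so this number has no background to be read against.

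**Figure D3:**
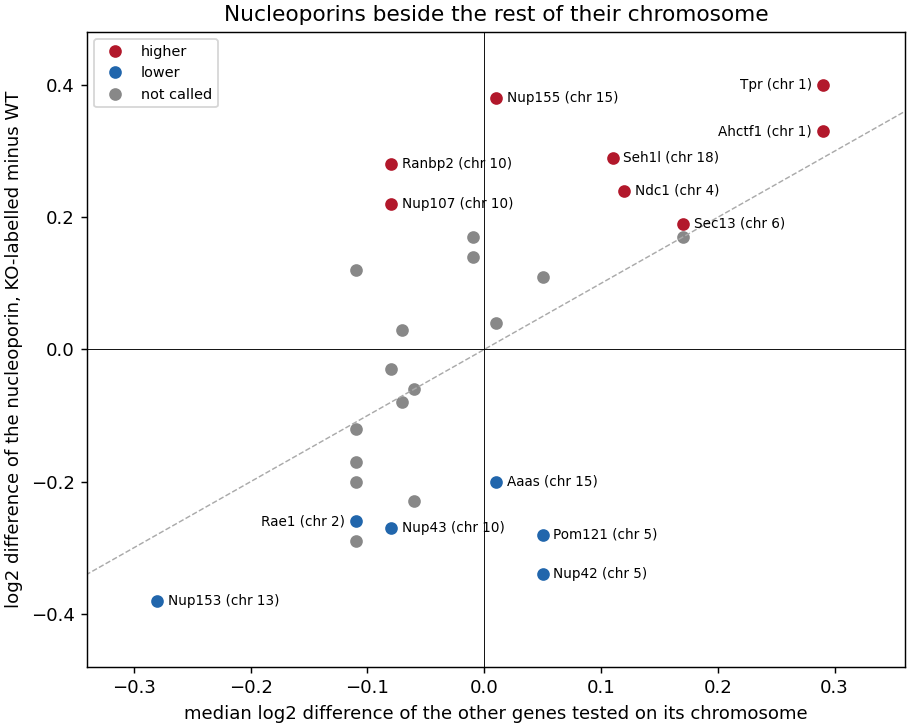
The horizontal axis is the median log2 difference of the other tested genes on the member's chromosome, and the vertical axis the log2 difference of the nucleoporin itself, with called genes named. The dashed line marks equality. Tpr, Ahctf1, Sec13 and Nup153 lie near the line, whereas Nup155, Ranbp2, Nup107, Nup42 and Pom121 lie away from it.

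When each chromosome's median was entered as an offset, 5 nucleoporins were higher and 2 lower. Of all 15454 genes tested, 2254 were higher and 2782 lower with this offset, against 2721 and 3290 without it. Ranbp2 (0.38), Nup155 (0.38) and Nup107 (0.32) stayed higher and Nup42 (-0.38) and Pom121 (-0.32) stayed lower, with log2 differences in brackets. Nup160 (0.24, adjusted p = 0.026) and Nup93 (0.20, adjusted p = 0.044) were now called higher. Tpr fell to 0.12 (adjusted p = 0.274), Ahctf1 to 0.06 (adjusted p = 0.573) and Sec13 to 0.03 (adjusted p = 0.731), and Nup153 stood at -0.08 (adjusted p = 0.458). Rae1 (-0.14), Nup43 (-0.17), Seh1l (0.20), Ndc1 (0.13) and Aaas (-0.20) were not called either. The cause of the chromosome medians was not tested.

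GC content moved with the differences as well. Across 15439 genes, which are not independent replicates, the Spearman correlation of the log2 difference with the GC content of the longest transcript was -0.26. Genes under the lower quartile of 44.1% GC had a median log2 difference of 0.15, and genes over the upper quartile of 53.9% one of -0.16. The nucleoporins called higher had a median GC of 44.9% (40.6% to 49.3%), and those called lower one of 51.2% (43.2% to 57.6%). With the GC trend removed, Ranbp2 stood at 0.14, Pom121 at -0.10 (adjusted p = 0.162) and Aaas at -0.14 (adjusted p = 0.112), none of them called. Tpr (0.33), Nup155 (0.28), Ahctf1 (0.26), Nup153 (-0.44) and Nup42 (-0.34) were called there. Whether GC has a part in the result was tested no further.

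**Figure D4:**
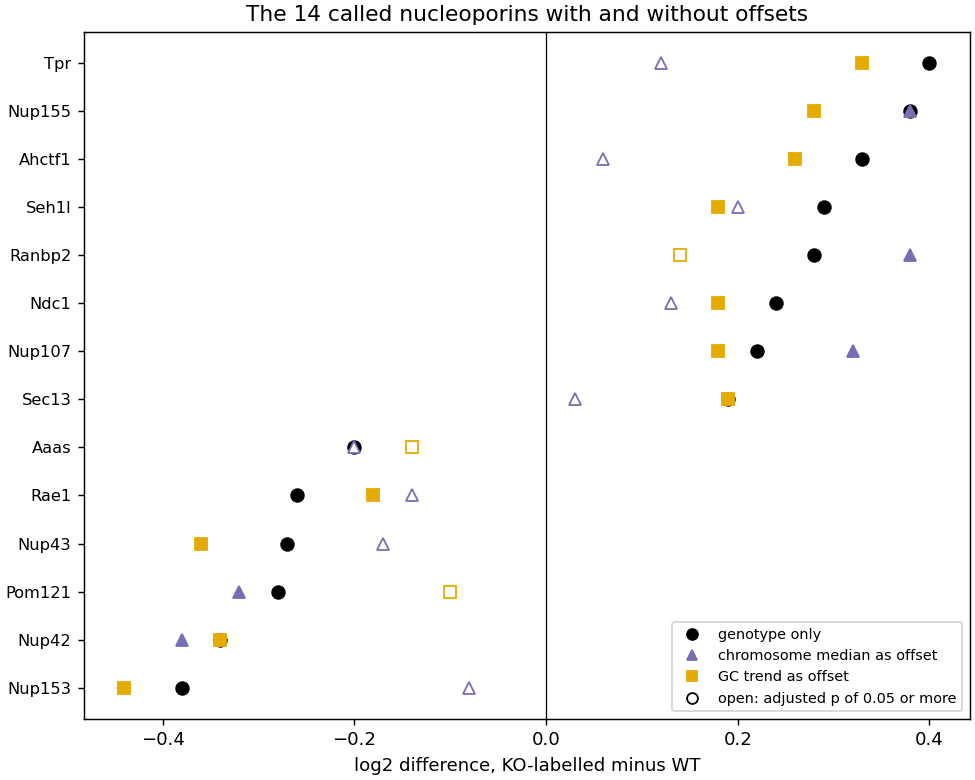
Log2 differences (KO-labelled minus WT) of the 14 called nucleoporins from the fit with genotype only (black), with the chromosome median as an offset (violet triangles) and with the GC trend as an offset (yellow squares). Open symbols have an adjusted p of 0.05 or more. Nup155, Nup42 and Nup107 are filled throughout, Tpr, Ahctf1 and Nup153 open only for the chromosome offset, and Ranbp2 open only for the GC offset.

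Levels of different nucleoporins were compared per kilobase of merged exons. Among the 29 tested in WT libraries, Sec13 was the highest, at 43.5 ± 0.515 CPM per kb, followed by Tpr (28.8 ± 1.90), Aaas (28.5 ± 1.53), Nup107 (26.5 ± 1.37) and Nup85 (25.7 ± 0.806). Tpr and Aaas did not differ beyond their spread, and neither did Nup107 and Nup85. Nup62 (23.3 ± 1.99), Ndc1 (23.2 ± 1.07), Seh1l (22.6 ± 2.03) and Nup93 (22.3 ± 0.668) came next and could not be put in order. These places depend on the length used: per kb of the longest transcript Nup62 moved from place 6 to 14, Ndc1 from 7 to 12 and Nup88 from 21 to 8, while Sec13 kept place 1. Ranbp2 stood at 20.4 ± 1.47 CPM per kb, in place 11, between Nup50 (20.9 ± 0.644) and Nup153 (20.0 ± 1.72), within the spread of both. At the low end were Gle1 (8.41 ± 0.609), Nup160 (8.39 ± 0.380), Nup133 (7.69 ± 0.618), Nup214 (6.37 ± 0.592) and Nup42 (4.77 ± 0.410). Subunits of the Y complex, which form 1 structure in the pore, thus ranged from Sec13 at 43.5 to Nup133 at 7.69 CPM per kb, and Sec13 and Seh1l also serve other complexes.

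**Figure D5:**
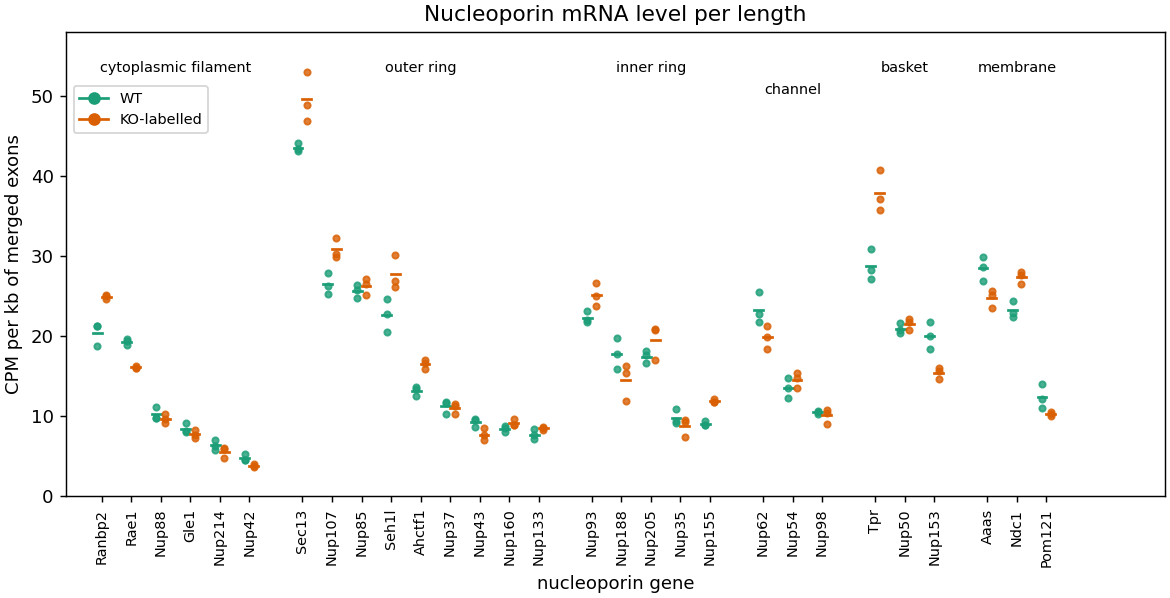
Points are CPM per kb of merged exons in each library (green WT, orange KO-labelled) and dashes are group means of 3 libraries, for the 29 tested nucleoporins in order of their WT level within each subcomplex. Sec13 and Tpr stand highest in their groups, and Nup42 is the lowest of all.

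The genes that work with Ranbp2 and the pore were described from lists, whose counts stand beside 38.9% called over all genes tested. Of 11 tested genes of direct Ranbp2 partners, 0 were higher and 1 was lower by edgeR, with 3 higher at an unadjusted p below 0.05 and 1 higher by DESeq2. This is 9.09% called. The lower gene was Bicd2, a dynein adaptor that Ranbp2 recruits to the nuclear envelope, which stood at 82.4 ± 4.54 against 150 ± 5.95 CPM, a log2 difference of -0.86 (SE 0.07, adjusted p = 1.11e-05). It lies on chromosome 13, where the median was -0.28. Of 25 tested mRNA export genes, 3 were higher and 2 lower (20.0% called, below the share of all genes). The cap-binding gene Ncbp1 rose from 119 ± 5.72 to 142 ± 4.43 CPM (log2 difference 0.26). Of the THO complex, Thoc6 rose from 14.5 ± 0.851 to 20.3 ± 1.98 CPM (0.48) and lies on chromosome 17, with a median of 0.27, and Thoc3, also on chromosome 13, fell from 43.5 ± 0.30 to 29.9 ± 1.67 CPM (-0.54).

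Pore assembly and surveillance genes showed 2 higher and 2 lower of 22 tested (18.2% called, against 38.9% of all genes). Rtn4, a reticulon that bends membrane, fell from 733 ± 30.5 to 528 ± 8.40 CPM (log2 difference -0.47, SE 0.07), and Chmp4b, an ESCRT-III subunit, from 129 ± 6.16 to 103 ± 6.30 CPM (-0.32). Vps4b, an ATPase that disassembles ESCRT-III, rose from 95.6 ± 7.77 to 123 ± 2.25 CPM (0.36) and lies on chromosome 1, with its median of 0.29. Of 12 tested pore-associated genes outside the list of 31, 2 were higher and 0 lower by edgeR, with 2 lower at an unadjusted p below 0.05 and 1 lower by DESeq2, and 16.7% were called. The higher genes were Mad2l1, a spindle checkpoint protein (99.9 ± 9.55 to 134 ± 6.87 CPM, log2 difference 0.43), and Tmem209 (89.1 ± 3.80 to 103 ± 5.16 CPM, 0.21), both on chromosome 6, where the median was 0.17.

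Importins, exportins and Ran cycle genes showed 6 higher and 4 lower of 31 tested (32.3% called, below the 38.9% of all genes), with Rangrf (-1.96), Ipo13 (-0.68) and Kpna4 (0.36) having the smallest adjusted p. SUMO pathway genes showed 2 higher and 5 lower of 18 (38.9% called, the same share as over all genes), among them Zfp451 (0.66, on chromosome 1 with its median of 0.29) and Sumo3 (-0.47), with log2 differences in brackets. The medians of the 6 lists lay between 0.00 and 0.10, beside 0.01 for all genes, and some genes stand in more than 1 list.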

How the data were processed

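Each group had 3 libraries. The authors deposited 1 table of expected counts. Per the submitters' processing notes the tools were RSEM and cutadapt and the build GRCm38, and for versions, aligner and strand the entry is "not given in the sources used here". Of all values 17.9% are not whole, since RSEM divides reads that match several genes, so copies, overlapping and antisense genes are uncertain. The members and gene lists were chosen with earlier results of these data known. Of 55471 identifiers, 55230 matched GENCODE M21 (GRCm38, 1-based positions).

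Counts were rounded and scaled by TMM in edgeR 4.0.16 under R 4.3.3. The function filterByExpr, at its minimum of 10 counts and a total of 15, left 15454 genes. The quasi-likelihood test was two-sided with genotype alone in the model, and p-values were adjusted by Benjamini-Hochberg over all genes tested. Intervals are 1.96 SE to each side. CPM are on TMM-scaled library sizes and given as mean ± SD. No source says that the 3 libraries of a group are separate clones, so p-values measure the spread between libraries, whose common biological coefficient of variation was 11.5%. Values in every library were given for each called member and for the member with the highest level per length of each subcomplex; of each related list up to 3 genes with the smallest adjusted p were named, except 1 that is not reported here. Zc3h11a, with 2 identifiers, was left out. Copies were sought with blastn 2.17.0 (at least 300 bases at 90% identity). Alternatives were other scalings, DESeq2 1.42.0, no count filter, a replicate block, offsets for chromosome and GC, and fits without 1 library. The fit was tested on simulated counts.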

Additional observations from a re-analysis of the deposited data

How the results depend on the processing

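Across 13 alternatives, of which the GC offset was chosen after seeing the data, no called nucleoporin changed sign, and 2 of 14 (Nup155 and Nup42) were called under each; of the 15 others, 6 were called under at least 1. The count of nucleoporins higher (8) was 5 with no count filter, 5 with the chromosome offset and 4 with the replicate block, and ranged from 4 to 8 with 1 library left out. The count lower (6) was 9 with no count filter, 8 with DESeq2 (7 higher), 4 with library size alone (8 higher) and 2 with the chromosome offset, and ranged from 3 to 6 with 1 library left out. Of all genes tested, 2721 were higher (17.6%) and 3290 lower (21.3%). Their number higher was 2736 with no count filter and 2213 with the replicate block. With 1 library left out it ranged from 1839 (without WT 2) to 2737 (without WT 3). Their number lower then ranged from 2514 (without WT 2) to 3369 (without WT 3). Over the related lists, which hold 106 different genes, not all of them tested, 15 genes were higher and 14 lower. The number higher was 9 with no count filter and 9 with the replicate block and ranged from 7 to 18 with 1 library left out, being 7 without KO-labelled 3 or WT 2 and 8 without KO-labelled 2; the number lower ranged from 9 to 15, the 9 without WT 2. The replicate numbers do not pair the libraries: deviations of same-numbered libraries correlated at 0.022, -0.081 and -0.034, and no library correlated best with its own number. With the block Ranbp2 stood at 0.29 (adjusted p 0.0419). Ranbp2 stood at 0.14 with the GC offset and no longer passed, and in place 13 instead of 11 per length when the longest transcript was used. Reversals touched only genes near 0 that were not called: with the chromosome offset Nup88 stood at 0.01, Gle1 at 0.0024, Nup37 at 0.07 and Nup98 at 0.01, and with no count filter Nup85 at -0.00027. With 1 library left out, Nup37 ranged from -0.10 (without WT 1) to 0.02 (without KO-labelled 1; 0.01 without WT 2), and Nup98 from -0.11 (without KO-labelled 3) to 0.02 (without KO-labelled 1). With the chromosome offset the median log2 difference of the inner ring went from 0.17 to 0.01, of the cytoplasmic filament from -0.16 to -0.04 and of the channel from -0.06 to 0.01, and with the GC offset that of the membrane group from -0.20 to -0.10. The causes were not tested.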

Other observations

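KO-labelled library 1 was the lowest of its group in 15 of the 29 tested nucleoporins, where it was the lowest in 39.7% of all genes tested, and WT library 1 was the lowest of its group in 14, against 38.7% of all genes tested. KO-labelled 2 and WT 2 were each the lowest in 5, against 30.4% and 22.3% of all genes tested.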
